A study of Mus musculus with 16 samples.

Results

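The genes of the integrated stress response and of the mitochondrial stress response were followed in RNA-seq libraries of mouse hypothalamus. They were chosen by name, though with earlier results of these data known. They were Atf4, Atf5, Ddit3, Trib3, Asns and Chac1 of the ATF4 arm, the mitochondrial chaperones Hspd1 and Hspe1, and the mitochondrial proteases Lonp1 and Clpp. Of these 10 genes, 9 were measured, among 16196 genes in the whole series, and Trib3 was not analysed here. All 16 mice were C57BL6/J females that ate a high fat diet (45 kcal% from fat) for 12 weeks from 10 weeks of age, and each mouse gave 1 library. OLZ+MINO mice received the antipsychotic olanzapine at 54 mg/kg of diet and the tetracycline antibiotic minocycline at 0.6 mg/ml in the drinking water. OLZ mice received olanzapine alone, MINO mice received minocycline alone, and CTRL mice received neither drug, with 4 mice in each of the 4 groups. OLZ+MINO, OLZ and CTRL share a table of 15983 genes, and MINO is set against the same CTRL mice in a second table of 16005 genes that was scaled separately.

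The integrated stress response begins with kinases that phosphorylate the translation factor eIF2alpha. Most translation then slows, while the mRNA of the transcription factor ATF4 is translated more, and ATF4 switches on genes of amino acid supply, tRNA charging and redox balance. The mitochondrial unfolded protein response is the related program that raises chaperones and proteases of the mitochondrial matrix, and in mammals both programs draw on ATF4, ATF5 and CHOP, the product of Ddit3. Both are studied in the hypothalamus because neurons there that control feeding react to lipid and protein stress. Tetracyclines such as minocycline are known to act on bacterial ribosomes and to slow translation on the related ribosomes of mitochondria.

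ATF4 binds DNA with C/EBP proteins at a composite element whose core is TGATGNAA. In the RefSeq promoter windows of the genome build GRCm38.p6, which run from 250 bases before to 50 bases after each start site, the core was found on either strand in 1304 of 32851 windows (3.97%). All 10 genes had a window there, 12 windows in all, and the core lay in those of 3 genes, Chac1, Asns and Trib3. The upstream stretches of Chac1 and Asns are shown because these are the measured targets of ATF4 with the core. Capitals mark the core and, in Chac1, also the CCAAT box (CCAAT or its reverse ATTGG on the other strand), which 37.4% of all windows hold. The Chac1 stretch lies on the plus strand at chr2:119350992-119351221, from 250 to 21 bases upstream of the start, and its core reads on the strand opposite to the gene from 193 bases upstream. The Asns stretch lies on the minus strand at chr6:7693214-7693243 and its core begins 23 bases upstream. In the GENCODE annotation that stretch falls within the gene, since its start is placed further out.
Chac1: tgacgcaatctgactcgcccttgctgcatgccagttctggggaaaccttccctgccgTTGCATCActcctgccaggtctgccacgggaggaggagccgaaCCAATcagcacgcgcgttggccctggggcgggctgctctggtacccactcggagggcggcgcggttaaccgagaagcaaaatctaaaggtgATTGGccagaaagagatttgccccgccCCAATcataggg
Asns: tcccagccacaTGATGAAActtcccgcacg
A match describes these letters and does not show that ATF4 was bound there.

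The values are scaled counts, in which the authors had brought each library's read counts to a common scale, and their sums were 8855060 to 9279227 in OLZ+MINO, 8435016 to 8640807 in OLZ and 8729065 to 8967125 in CTRL libraries. They were 8849189 to 9447616 in MINO libraries. The library of OLZ+MINO mouse 48 stood apart. The summed scaled count of 8 hypothalamus markers was 873 in it, against 3707 to 9505 in the other 11 libraries of its table, and that of 6 thalamus markers was 16216, against 3912 to 8382. Markers of tanycytes, glia of the ventricle floor, moved with the groups, with 13 of 14 listed measured. Their summed scaled count was 2688 to 4207 in OLZ+MINO, 4603 to 7098 in OLZ and 2786 to 3159 in CTRL, and 2749 to 5148 in MINO against 2803 to 3180 in CTRL in the second table. None of these markers was at 0 in all libraries of a group. The marker lists were chosen with earlier results of these data known. The mitochondrial ribosomal RNA mt-Rnr2 took 8.75 to 9.43% of the total in OLZ+MINO, 6.18 to 6.94% in OLZ and 5.43 to 6.60% in CTRL. It took 7.93 to 9.93% in MINO. What part tissue makeup and mt-Rnr2 have in the values given here was not tested, and in whole tissue fewer cells of a type and less RNA per cell cannot be told apart.

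To ask whether either drug changed these genes, log2(scaled count + 1) was tested with limma and adjusted over all genes of a table. A gene is said to rise or fall at an adjusted p under 0.3. That number is the FDR limit the study gave for genes changed by olanzapine and corrected by minocycline. Here it is applied to each comparison by itself, with p-values adjusted by Benjamini and Hochberg. Chac1 was the one member that passed, and it did so in the comparison of OLZ+MINO with OLZ. There it was called beside 12.4% of all genes. No member passed for OLZ against CTRL, where 3.64% of genes did, for OLZ+MINO against CTRL, where 0.025% did, or for MINO against CTRL, where 0% did. A count of 1 in 9 members is near the share of all genes and is not a result about the set. At an unadjusted p under 0.05, limma gave 0 members for OLZ against CTRL (11.4% of all genes), 1 for OLZ+MINO against OLZ (14.9%), 0 for OLZ+MINO against CTRL (6.19%) and 0 for MINO against CTRL (6.41%, or 1026 of 16005 genes). The comparisons within the first table share their libraries, and those with CTRL in both tables share the CTRL mice.

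**Figure D1:**
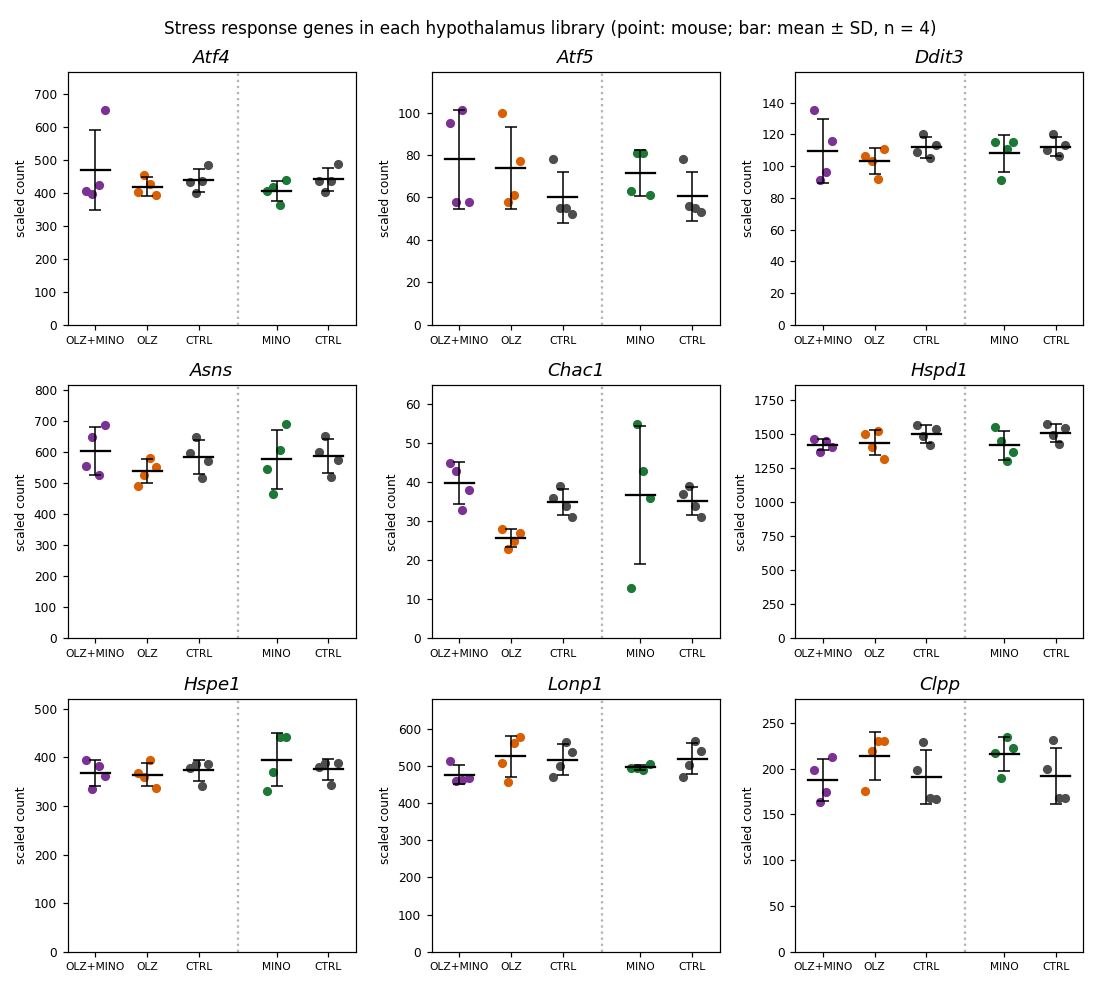
Scaled counts of the 9 measured genes, with a point for each mouse, a bar for the mean and an error bar for the SD (n = 4 mice per group). Left of the dotted line are OLZ+MINO, OLZ and CTRL, and right of it MINO and CTRL of the second table, which was scaled separately. The 4 OLZ points of Chac1, at 23 to 28, lie below all points of OLZ+MINO and CTRL.

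Chac1 encodes an enzyme that breaks down glutathione and is among the most responsive targets of the ATF4 arm. Its scaled counts were 45, 43, 33 and 38 in OLZ+MINO, 28, 23, 25 and 27 in OLZ and 36, 39, 34 and 31 in CTRL. The OLZ mice were the lowest of the table without overlap on either side, and OLZ+MINO and CTRL mice overlapped. Chac1 rose by 0.60 on the log2 scale in OLZ+MINO against OLZ (95% interval 0.13 to 1.07, standard error 0.22, adjusted p = 0.22 by limma), which is 1.52-fold, and was higher in 4 of 4 mice than in any OLZ mouse. In OLZ against CTRL its value was -0.43 on that scale (95% interval -0.90 to 0.04, adjusted p = 0.48 by limma), which did not pass. Groups failed to overlap for 7.7% of all genes in the first of these comparisons and for 6.95% in the second, and in both Chac1 was the one member to do so. No member did for OLZ+MINO against CTRL (2.93% of all genes) or for MINO against CTRL (3.25%). The change of Chac1 in OLZ+MINO against CTRL was 0.17 (95% interval -0.30 to 0.64). Neuron markers moved the same way as Chac1, with a summed scaled count of 21450 to 30531 in OLZ+MINO, 17588 to 22461 in OLZ and 22260 to 28239 in CTRL, and 5 of 8 of them rose in OLZ+MINO against OLZ, beside 5.99% of all genes that rose. Oligodendrocyte markers had sums of 27980 to 42087 in OLZ+MINO, 20489 to 27322 in OLZ and 19329 to 43756 in CTRL, and 4 of 7 rose in OLZ+MINO against OLZ (list median 0.55, against 0.31 for neurons). Thalamus markers had sums of 4951 to 16216 in OLZ+MINO, 3912 to 4783 in OLZ and 4814 to 8382 in CTRL, and 2 of 6 rose. Tanycyte markers moved the opposite way, and 10 of 13 fell, beside 6.36% of all genes. In the same comparison 4 of 8 hypothalamus and 2 of 7 microglia markers fell, with list medians of -1.41 and -0.23. Of 7 astrocyte markers 2 fell, while 5 had positive values (list median 0.03). Of 6 mammillary markers 1 fell, while 5 had positive values (list median 0.52). Mouse 48, with the fewest hypothalamus and the most thalamus counts, is among these OLZ+MINO libraries. The marker lists were chosen with earlier results of these data known, so these counts are no test of the lists. The part of these cells in the result was not tested.

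The call for Chac1 rests on few reads. Its mean over the 12 libraries was a scaled count of 33.5, where counting alone gives an SD of 5.79. The SD between mice of a group was 3.88, or 0.67 times that, so the mice differed by less than sampling noise alone would give. The limma fit with an intensity trend set its error by the spread of other genes at that level. Without the trend the standard error was 0.11 and Chac1 passed in both comparisons, with an adjusted p of 0.12 in the comparison of OLZ+MINO with OLZ and 0.29 in that of OLZ with CTRL. The call for OLZ+MINO against OLZ was lost without OLZ mouse 13 (log2 fold change 0.64, adjusted p = 0.41 by limma), OLZ mouse 14 (0.55, 0.37), OLZ+MINO mouse 40 (0.56, 0.40) or OLZ+MINO mouse 48 (0.62, 0.40). Over the 12 fits that left out 1 library each, the log2 fold change stayed between 0.54 and 0.69.

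In the second table Chac1 had scaled counts of 13, 55, 43 and 36 in MINO, against 37, 39, 34 and 31 in CTRL. MINO mice held both the lowest and the highest value, and the spread between mice there was above that of 89.9% of genes. This gave a log2 fold change of -0.10 (95% interval -0.93 to 0.72, adjusted p = 0.97 by limma), and without MINO mouse 26 it was 0.32.

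The transcription factors of the arm gave no call. Atf4, the factor that drives it, had 406, 397, 426 and 651 scaled counts in OLZ+MINO, 403, 456, 427 and 393 in OLZ and 433, 400, 436 and 486 in CTRL. The value of 651 is that of mouse 48, the library with few hypothalamus markers, and the other 11 libraries lay within 393 to 486. Its log2 fold changes were -0.06 in OLZ against CTRL, 0.13 for OLZ+MINO against OLZ and 0.07 for OLZ+MINO against CTRL. Without mouse 48 the last 2 were -0.033 and -0.096. MINO mice had Atf4 at 405, 417, 365 and 440, against 436, 403, 438 and 489 in CTRL, with a log2 fold change of -0.12 (95% interval -0.32 to 0.08). ATF4 protein is controlled largely through translation of this mRNA, which these libraries do not measure.

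Atf5 encodes a related factor that is also controlled by translation and is tied to the mitochondrial response. It had 95, 58, 101 and 58 scaled counts in OLZ+MINO, 100, 58, 61 and 77 in OLZ and 78, 55, 55 and 52 in CTRL. The highest values, 95 to 101, fell in 2 OLZ+MINO mice and 1 OLZ mouse, while the groups overlapped. It gave a log2 fold change of 0.28 in OLZ against CTRL (95% interval -0.23 to 0.80), 0.06 for OLZ+MINO against OLZ and 0.34 for OLZ+MINO against CTRL (95% interval -0.17 to 0.86). MINO mice had 63, 81, 81 and 61, against 78, 56, 55 and 53 in CTRL, with a log2 fold change of 0.24 (95% interval -0.19 to 0.68). The 3 comparisons with CTRL rest on the same CTRL mice and none passed (adjusted p = 0.69, 0.81 and 0.83 by limma). Atf5 overlaps Nup62 and Il4i1 of the opposite strand, and whether the counting used strand is not stated.

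Ddit3 encodes CHOP, the factor linked to cell death under lasting stress. It had 135, 91, 96 and 116 scaled counts in OLZ+MINO, 106, 103, 92 and 111 in OLZ and 109, 120, 105 and 113 in CTRL, with both the lowest and the highest mouse in OLZ+MINO. Its values on the log2 scale were -0.12 in OLZ against CTRL, 0.07 for OLZ+MINO against OLZ and -0.04 for OLZ+MINO against CTRL. In the second table Ddit3 had 115, 91, 111 and 115 in MINO, against 110, 120, 106 and 113 in CTRL (log2 fold change -0.06). For OLZ against CTRL the 95% interval of Ddit3 ran from -0.43 to 0.20. In GENCODE, Ddit3 shares 2925 bases with a second Ddit3 entry on the same strand, so reads of the 2 entries cannot be told apart, and 68 bases with the tRNA synthetase gene Mars and 15 with Gm4189, both of the opposite strand.

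Asns, the asparagine synthetase, is a classic target of ATF4. It had 556, 648, 525 and 687 scaled counts in OLZ+MINO, 490, 528, 582 and 552 in OLZ and 598, 648, 518 and 571 in CTRL. The groups overlapped, with the lowest mouse in OLZ and the highest in OLZ+MINO. The change was -0.12 on the log2 scale in OLZ against CTRL, 0.16 for OLZ+MINO against OLZ (95% interval -0.05 to 0.37, adjusted p = 0.47 by limma) and 0.05 for OLZ+MINO against CTRL. The signs of the first 2 were those of Chac1. Without OLZ+MINO mouse 47 the value for OLZ+MINO against OLZ was 0.23 and passed (adjusted p = 0.28 by limma). MINO mice ranged from 465 to 691, at 545, 465, 607 and 691, against 602, 652, 521 and 574 in CTRL, with a log2 fold change of -0.04.

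**Figure D2:**
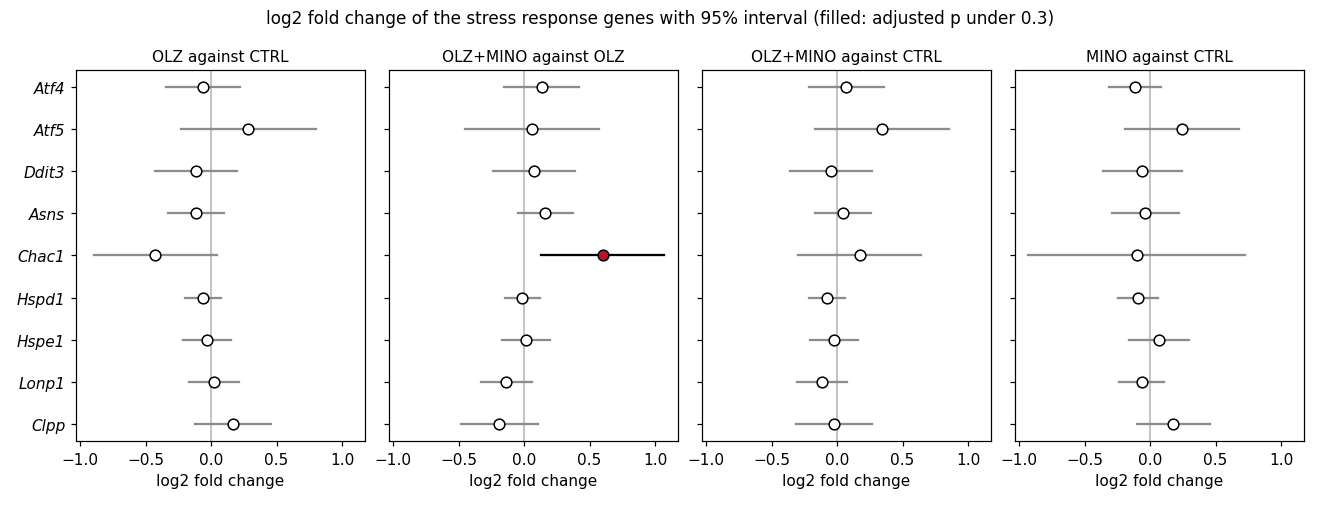
The log2 fold change of each measured gene in the 4 comparisons, with its 95% interval from limma. A filled point marks an adjusted p under 0.3, which Chac1 reached for OLZ+MINO against OLZ, at 0.60. All other intervals include 0.

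The mitochondrial chaperones varied little in the first table. Hspd1 (HSP60) and Hspe1 (HSP10) form the folding chamber of the mitochondrial matrix and its lid. Hspd1 had 1460, 1367, 1444 and 1406 scaled counts in OLZ+MINO, 1495, 1405, 1520 and 1316 in OLZ and 1562, 1480, 1415 and 1533 in CTRL. All groups overlapped, and the SD between mice of a group was 4.80% of the mean, lower on the log2 scale than in all but 1.93% of genes. Its log2 differences were -0.06 in OLZ against CTRL, -0.01 for OLZ+MINO against OLZ and -0.08 for OLZ+MINO against CTRL. The 95% interval for OLZ+MINO against CTRL ran from -0.21 to 0.06. In MINO it had 1549, 1445, 1301 and 1368, against 1572, 1489, 1422 and 1543 in CTRL, with a log2 fold change of -0.09 (95% interval -0.24 to 0.06).

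Hspe1 had 394, 334, 382 and 362 scaled counts in OLZ+MINO, 368, 360, 395 and 336 in OLZ and 378, 387, 342 and 386 in CTRL. The groups overlapped, with the lowest mouse in OLZ+MINO and the highest in OLZ. On the log2 scale the differences were -0.03 in OLZ against CTRL, 0.01 for OLZ+MINO against OLZ and -0.02 for OLZ+MINO against CTRL, with intervals between -0.22 and 0.20. When libraries were scaled to their totals without ribosomal RNA, the first 2 took the opposite sign, at 0.01 and -0.02. In MINO, Hspe1 was at 331, 369, 441 and 441, against 381, 389, 344 and 388 in CTRL (log2 fold change 0.07, 95% interval -0.17 to 0.30).

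Hspd1 and Hspe1 moved together from mouse to mouse in the first table, but not in the MINO mice. MINO mice 26, 31, 35 and 36 had Hspd1 at 1549, 1445, 1301 and 1368 and Hspe1 at 331, 369, 441 and 441. Among them, mice with less Hspd1 had more Hspe1, and no correlation was computed there. The genes lie head to head on chromosome 1 (GRCm38, Hspd1 at chr1:55077835-55088243 on the minus strand and Hspe1 at chr1:55088132-55091307 on the plus strand), and their annotations share 112 bases. After the group means were removed, their log2 values had a Pearson r of 0.85 over the 12 libraries of the first table (exact permutation of mice within groups, two-sided p = 0.00087, adjusted p = 0.031 over the 36 pairs of members). Spearman's rho was 0.73 (exact permutation p = 0.0048, adjusted p = 0.17). Without the 2 libraries whose Hspd1 deviation from the group mean lay farthest from the median deviation, r was 0.74. The group means of all 12 libraries were kept for that value. The other 35 pairs had an adjusted p of 0.99 for r by the same permutation, among them Atf4 with Asns (r = 0.35) and Atf4 with Chac1 (r = -0.46, and -0.81 without mouse 48). Reads in the shared bases cannot be told apart without strand, and their part in the correlation was not tested. The annotation also holds 5 named pseudogenes of Hspd1 and 6 of Hspe1, 0 of which had a row in the table, so reads from near-identical copies are a limit for both genes.

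**Figure D3:**
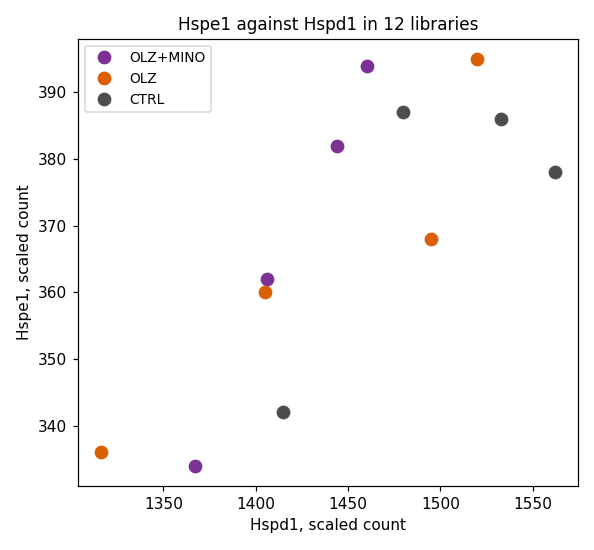
Scaled counts of Hspe1 (vertical) against Hspd1 (horizontal), with a point for each of the 12 libraries of OLZ+MINO, OLZ and CTRL. Both axes start above 0. Mice with more Hspd1 had more Hspe1 within the groups (r = 0.85 after removal of the group means), while the 3 groups overlapped.

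The proteases of the mitochondrial matrix did not pass either. Lonp1, an ATP-driven protease that removes damaged proteins and helps to maintain mitochondrial DNA, had 514, 460, 462 and 467 scaled counts in OLZ+MINO, 507, 455, 562 and 576 in OLZ and 469, 498, 563 and 536 in CTRL. Of the 4 OLZ+MINO mice 3 lay at 460 to 467, below all CTRL mice and in the low end of the OLZ range. On the log2 scale its difference was 0.02 in OLZ against CTRL, -0.14 for OLZ+MINO against OLZ (95% interval -0.33 to 0.06, adjusted p = 0.51 by limma) and -0.12 for OLZ+MINO against CTRL. In MINO, Lonp1 was at 495, 495, 488 and 504, against 471, 501, 566 and 539 in CTRL, so the MINO mice lay within the CTRL range (log2 fold change -0.06).

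Clpp encodes the proteolytic subunit of the ClpXP protease. It had 199, 163, 174 and 213 scaled counts in OLZ+MINO, 176, 219, 230 and 230 in OLZ and 199, 229, 168 and 167 in CTRL. Of the 4 OLZ mice 3 were at or above 219, as was 1 CTRL mouse. Its differences were 0.17 on the log2 scale in OLZ against CTRL (95% interval -0.12 to 0.46), -0.19 for OLZ+MINO against OLZ (95% interval -0.48 to 0.10) and -0.02 for OLZ+MINO against CTRL. In MINO, Clpp was at 217, 190, 234 and 222, against 200, 231, 168 and 168 in CTRL, with a log2 fold change of 0.18 (95% interval -0.10 to 0.46).

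Over the 9 genes the median log2 difference was -0.06 in OLZ against CTRL, 0.06 in OLZ+MINO against OLZ, -0.02 for OLZ+MINO against CTRL and -0.06 for MINO against CTRL. Over all genes tested the medians were 0.0037, 0.0048, 0.0012 and 0.0022. The median size of the change without its sign was 0.12, 0.13, 0.07 and 0.09 for the 9 genes, and 0.14, 0.16, 0.13 and 0.12 for all genes. The precision differed by gene. For OLZ against CTRL the 95% interval of Hspd1 was -0.20 to 0.07, whereas that of Atf5 reached 0.80 and that of Chac1 -0.90.

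Other genes of the same pathways were read from 9 lists with 125 genes, 121 of them measured, from the eIF2alpha kinases to the regulators of the mitochondrial response. In OLZ against CTRL, 0 rose and 1 fell, beside 1.82% of all genes that rose and 1.82% that fell, and 8 had an unadjusted p under 0.05 (11.4% of all genes did). In OLZ+MINO against OLZ, 3 rose and 5 fell, beside 5.99% of all genes that rose and 6.36% that fell, and 10 had an unadjusted p under 0.05 (14.9% of all genes). For OLZ+MINO against CTRL and for MINO against CTRL limma called 0 of the 121, with 8 and 5 at an unadjusted p under 0.05, which 6.19% and 6.41% of all genes had. List medians for OLZ+MINO against OLZ lay between -0.07 and 0.12, the last for tRNA synthetases and tRNA export. Without OLZ+MINO mouse 48, 1 rose and 1 fell in this comparison, where 556 of all 15983 genes were called, and without OLZ mouse 13, 1 rose and 0 fell, where 187 were. In OLZ against CTRL, 1 rose and 5 fell without OLZ+MINO mouse 48, beside 1470 of all genes called. Without that mouse and CTRL mouse 5, 2 rose and 2 fell in OLZ+MINO against OLZ, where 328 of all genes rose and 415 fell. In OLZ against CTRL, 3 rose and 10 fell in that fit, where 999 of all genes rose and 1117 fell.

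**Figure D4:**
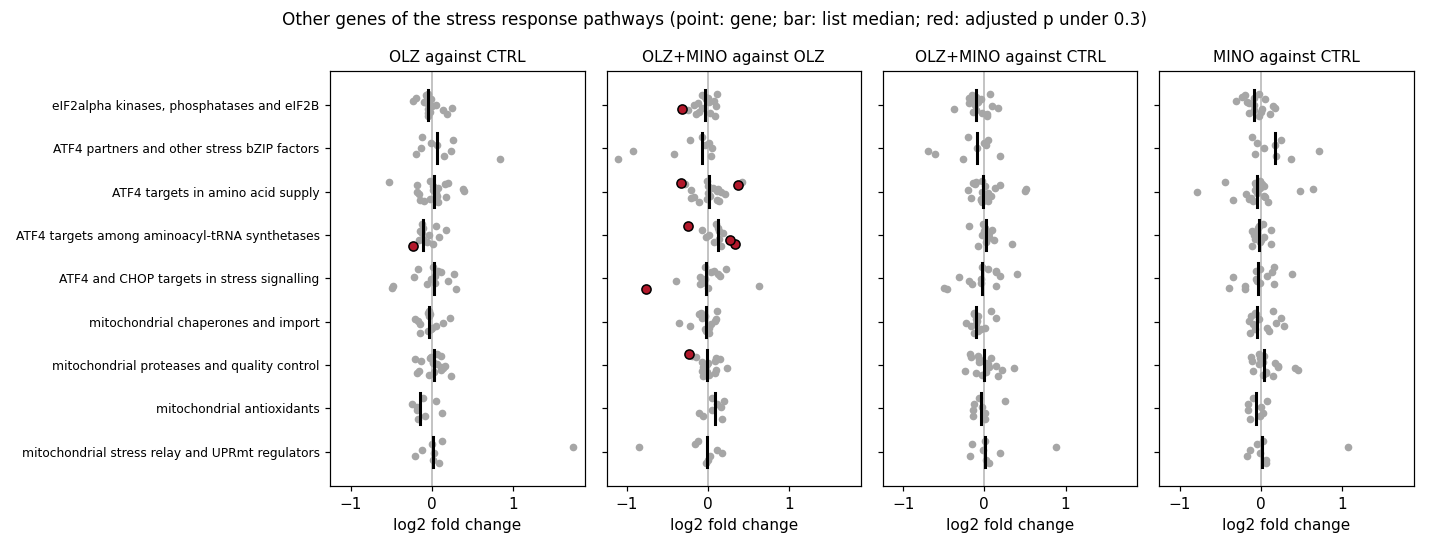
The log2 fold change of each of the 121 measured pathway genes in the 4 comparisons, by list, with a bar at the list median. Red points passed an adjusted p under 0.3, 8 in the comparison of OLZ+MINO with OLZ and 1 in that of OLZ with CTRL.

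Of 13 genes of tRNA charging and export, 2 rose and 1 fell in OLZ+MINO against OLZ and 1 fell in OLZ against CTRL, beside 12.4% and 3.64% of all genes called in these comparisons. Cars, the cysteinyl-tRNA synthetase, had 349, 373, 343 and 377 scaled counts in OLZ+MINO, 291, 271, 291 and 293 in OLZ and 280, 298, 265 and 291 in CTRL. All 4 OLZ+MINO mice were above all mice of both other groups. Cars rose by 0.33 on the log2 scale in OLZ+MINO against OLZ, with a standard error of 0.08 (adjusted p = 0.096 by limma), and passed with each of the 12 libraries left out in turn. For OLZ+MINO against CTRL its log2 fold change was 0.35, which did not pass (adjusted p = 0.48 by limma). In MINO it had 377, 283, 274 and 322, against 282, 300, 266 and 293 in CTRL, with a log2 fold change of 0.13 and overlap.

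Gars, the glycyl-tRNA synthetase, had 833, 945, 805 and 1009 in OLZ+MINO, 712, 742, 781 and 722 in OLZ and 796, 801, 827 and 879 in CTRL. The OLZ mice were lowest without overlap. It rose by 0.28 in OLZ+MINO against OLZ (adjusted p = 0.13 by limma), and did not pass without OLZ mouse 13 (adjusted p = 0.36) or OLZ+MINO mouse 48 (0.32). Aars, the alanyl-tRNA synthetase, had 1252, 1386, 1242 and 1406 in OLZ+MINO, 1130, 1117, 1225 and 1269 in OLZ and 1483, 1275, 1370 and 1464 in CTRL. It fell by 0.24 on the log2 scale in OLZ against CTRL (adjusted p = 0.25 by limma), with every OLZ mouse below every CTRL mouse. That call was lost without CTRL mouse 3 (adjusted p = 0.47), CTRL mouse 11 (0.53), OLZ mouse 13 (0.58), OLZ mouse 14 (0.47) or OLZ mouse 19 (0.31), and also with quantile normalization (0.30) and without the intensity trend (0.37). Xpot, which exports tRNA from the nucleus, fell by 0.24 in OLZ+MINO against OLZ, with 855, 830, 845 and 793 in OLZ+MINO and 943, 1025, 1024 and 948 in OLZ (adjusted p = 0.15 by limma). It did not pass without OLZ mouse 13 (adjusted p = 0.32), OLZ mouse 14 (0.30) or OLZ+MINO mouse 48 (0.32).

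Of the genes of amino acid supply, Slc7a11, the cystine importer that feeds glutathione synthesis, had 1137, 994, 990 and 1082 scaled counts in OLZ+MINO, 1508, 1217, 1209 and 1395 in OLZ and 1060, 1097, 1328 and 1172 in CTRL. It fell by 0.34 in OLZ+MINO against OLZ (adjusted p = 0.12 by limma), opposite in sign to Chac1, and OLZ+MINO mice did not overlap with OLZ mice. Without OLZ mouse 13 it did not pass (adjusted p = 0.35). Slc6a9, a glycine transporter, rose by 0.37 in the same comparison (adjusted p = 0.15 by limma), with 660, 834, 704 and 807 in OLZ+MINO and 558, 553, 609 and 601 in OLZ. It did not pass without OLZ mouse 13 (adjusted p = 0.37), OLZ+MINO mouse 40 (0.33) or OLZ+MINO mouse 48 (0.32). In the same comparison there were 10 positive and 3 negative values among 13 genes of tRNA charging and export, and 11 positive and 9 negative among 20 of amino acid supply. Over all 121 measured pathway genes there were 60 positive and 61 negative values, and the signs were not tested.

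The remaining calls for OLZ+MINO against OLZ were single genes. Eif2b2, a subunit of the exchange factor that recycles eIF2, fell by 0.32, with 113, 104, 122 and 122 in OLZ+MINO and 129, 162, 157 and 132 in OLZ. Bbc3, which encodes the cell death protein PUMA, fell by 0.76 with scaled counts of 9 to 23 against 23 to 30. Yme1l1, a protease of the inner mitochondrial membrane, fell by 0.23 with overlap, at 1452, 1333, 1445 and 1175 in OLZ+MINO and 1625, 1628, 1629 and 1448 in OLZ. The adjusted p of these 3 genes was 0.24, 0.29 and 0.17 by limma. Their calls were lost without OLZ+MINO mouse 48 (0.37, 0.47 and 0.38) and also without OLZ mouse 13 (0.37, 0.54 and 0.41), OLZ mouse 14 (0.42, 0.38 and 0.31) or OLZ+MINO mouse 40 (0.43, 0.30 and 0.32). Eif2b2 was lost without OLZ mouse 17 (0.37) as well, and Bbc3 in all fits with 1 library left out but that without CTRL mouse 5. None of the 14 mitochondrial chaperone and import genes and none of the 8 mitochondrial antioxidant genes passed in any of the 4 comparisons. Of all genes, 3.64% passed for OLZ against CTRL, 12.4% for OLZ+MINO against OLZ, 0.025% for OLZ+MINO against CTRL and 0% for MINO against CTRL. In lists this small, counts of 0 beside these shares are not a result about the lists.

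The genes with the pattern most like that of each member over the 12 libraries of the first table, among 10048 genes with a mean of at least 100, were no other members, though Chac1 and Atf5, with lower means, could not be chosen. For Chac1 they were Cdkal1, Garnl3 and Rassf5 (Pearson r of 0.91, 0.91 and 0.85), for Hspd1 Tspyl1, Hrsp12 and Gnpat (0.89, 0.86 and 0.85), and for Hspe1 Hrsp12, Dctn3 and Dph7 (0.84, 0.83 and 0.83). For Atf4 the closest with a usable symbol were Enc1 and Nell2 (0.96 each), and mouse 48 is the library with the highest Atf4 value. For Asns, whose closest were Plcl1, Adipor2 and Sars (0.93, 0.92 and 0.90), the list held 1 other gene of the arm, the seryl-tRNA synthetase. The closest to Atf5 was Slx4ip (0.85), to Ddit3 Med19 (0.81), to Lonp1 Atg14 (0.92) and to Clpp B4galt3 (0.91). The best r between 2 members was 0.80, for Hspd1 with Hspe1, and the next 0.53, for Asns with Chac1. These r values describe the same 12 libraries, scaled by a factor per library, and as the highest of many they run high by choice.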

How the data were processed

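Per the labels and the study's methods, hypothalamic RNA was made into TruSeq libraries and the reads were mapped with Bowtie2 and counted with RSEM before analysis with limma. The build, mm9, is from the submitters' processing notes. Neither the labels nor the methods state tool versions, use of strand or how values were scaled. The deposited signal is whole numbers that behave as each library's read counts times 1 factor, rounded, and is called scaled counts here. Each CTRL library has higher values in the second table, by a factor of 1.0048 to 1.00615. From steps among low values, depth was estimated at 7997000 to 9387000 reads for 8 of 12 libraries and at 8000000 to 9740000 for 7 of 8 in the second table. The authors' group means, fold changes, log2 ratios and false discovery rates in the same tables were not used, nor was a sheet of 6 copied rows. 0 columns belonged to other samples, and 23 symbols that a spreadsheet had turned into dates were not named.

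Since the values are not raw counts, no count model was used. The log2(value + 1) was fitted with limma 3.58.1 in R 4.3.3 (lmFit, eBayes with trend), with a fit for OLZ+MINO, OLZ and CTRL and another for MINO with CTRL. P-values were adjusted by Benjamini and Hochberg over all genes. A filter at a group mean of 1 removed none. Fold changes on this scale understate changes of low genes. No test of the interaction of the drugs was run, because the tables were scaled separately. The 4 libraries of a group are from separate mice per the labels. The steps were tested on simulated data. Correlations and figures used Python 3.11.15.

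The members, the pathway and marker lists and the tests were chosen with earlier results of these data known. All members are named. Of the pathway lists, genes past the threshold are named, at most 6 per list and comparison, and 1 gene that the counts include is not reported here by name. Genes most like a member are the 3 with the highest r. Alternatives were quantile normalization, library totals without ribosomal RNA, pseudocounts of 0.1 and 10, no filter, a mean of at least 50, no trend, array quality weights, only the compared groups, a threshold of 0.05 and each library left out. A fit that left out CTRL mouse 5 together with OLZ+MINO mouse 48, which had the lowest quality weights (0.69 and 0.54), and the alternatives for named pathway genes, were added after the data were seen. Gene positions are from GENCODE M21 (GRCm38), another build than the files', and were used in no test.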

Additional observations from a re-analysis of the deposited data

Results flagged for a closer look

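Among the 36 groups of 4 values for the 9 genes, 4 held a sample far from the other 3 by Dixon's ratio at its 95% critical value, where chance gives about 1 in 20 groups, or 1.8. Atf4 was at a scaled count of 651 in OLZ+MINO mouse 48, against 397 to 426 in the other 3 mice, in the library with the lowest sum of hypothalamus markers (873). Lonp1 was at 514 in OLZ+MINO mouse 37, against 460 to 467. Atf5 was at 78 in CTRL mouse 3, against 52 to 55, and without that mouse its log2 difference was 0.41 in OLZ against CTRL, 0.47 for OLZ+MINO against CTRL and 0.37 for MINO against CTRL, none past the threshold. Ddit3 was at 91 in MINO mouse 31, against 111 to 115. The causes were not tested.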

How the results depend on the processing

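No paired analysis was possible because the mouse numbers of the labels are not shared between groups. The number of members called for OLZ+MINO against OLZ was 1, and 0 with a mean of at least 50, which removes Chac1, with a threshold of 0.05, and without CTRL mouse 5 and OLZ+MINO mouse 48, where Chac1 had a log2 fold change of 0.62 (adjusted p = 0.38 by limma). It was 0 to 2 when 1 library was left out. For OLZ against CTRL it was 0, and 1 without the intensity trend (Chac1, adjusted p = 0.29). It was 0 in all alternatives for OLZ+MINO against CTRL and for MINO against CTRL. Without CTRL mouse 5 and OLZ+MINO mouse 48, Atf4 was at -0.033 for OLZ+MINO against OLZ and -0.10 for OLZ+MINO against CTRL, and Asns at -0.075 for OLZ+MINO against CTRL, opposite in sign to the fit with all libraries. With 1 library left out, the log2 fold change of Atf4 was -0.033 to 0.20 and -0.096 to 0.14 in these comparisons, and that of Chac1 for MINO against CTRL -0.35 to 0.32. Of 770 member values under alternatives, 37 changed sign.

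The number of genes called depended more on the processing. It was 582 in OLZ against CTRL, 1974 for OLZ+MINO against OLZ, 4 for OLZ+MINO against CTRL and 0 for MINO against CTRL. Without the intensity trend it was 193, 1023 and 15 in the first 3. With a threshold of 0.05 it was 2, 54 and 0. With array quality weights it was 1652 in OLZ against CTRL and 0 in OLZ+MINO against CTRL, and with only the compared groups in the fit 1559 and 0. Without CTRL mouse 5 and OLZ+MINO mouse 48 it was 2116, 743 and 0. With 1 library left out it ranged from 2 (without OLZ mouse 13) to 1470 (without OLZ+MINO mouse 48), from 187 (without OLZ mouse 13) to 2834 (without OLZ+MINO mouse 37), from 0 to 4 and from 0 to 3. Calls were 291 higher and 291 lower for OLZ against CTRL, and 511 and 237 with library totals without ribosomal RNA. They were 958 and 1016 for OLZ+MINO against OLZ, and 842 and 1393 with those totals. The causes were not tested. Of the 8 named pathway calls for OLZ+MINO against OLZ, 1 to 8 remained with 1 library left out. At scaled counts as low as those of Chac1, counting error limits what can be seen.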
